A study of Mus musculus with 8 samples.

Results

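Matrix metalloproteinases (MMPs), ADAM and ADAMTS proteases and the tissue inhibitors of metalloproteinases (TIMPs) were measured by RNA-seq in mouse pancreatic ductal adenocarcinoma (PDAC) cells with and without *Smad4*. Members were taken by symbol, as all genes of the count table named Mmp, Adam, Adamts, Adamtsl or Timp followed by a digit, and 84 of 53465 genes met this rule. Of these, 44 had 10 or more counts in at least 2 libraries and are reported, and 41 of the 44 passed the filter for testing. The remaining 40 stayed below that minimum, and 16 of them had no count in any library. By family, 13 of 23 Mmp genes, 14 of 33 Adam genes, 11 of 19 Adamts genes, 3 of 5 Adamtsl genes and 3 of 4 Timp genes were reported.

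The 8 libraries came from 2 cell lines, B73 and B87, each derived from a primary tumor of the KC-shSmad4 mouse. In this model Ptf1a-Cre acts in the pancreatic epithelium, rtTA3 and mKate2 are expressed from the Rosa26 locus, and doxycycline (Dox) switches on a GFP-linked short hairpin RNA against *Smad4* from the Col1a1 locus. Every library carries these alleles (2 hairpin sequences exist, and which one a line holds was not stated), and the Smad4-off cells stayed on Dox whereas the Smad4-on cells had been without it for 5 days before plating. The cells were grown on collagen-coated plates and passaged to remove other cell types. From 24 h after plating, both states were exposed for 24 h to 100 pM TGFβ1 or to SB505124 at 2.5 µM, which blocks the kinase of the type I TGFβ receptor, so that each of the 4 groups held 1 library per line. Presence of Dox and silencing of *Smad4* cannot be told apart in this design, and no untreated cells were included. Changes with TGFβ1 below are therefore differences from cells under SB505124. Effects of the added TGFβ1 and of the receptor block cannot be told apart in them.

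MMPs are zinc-dependent endopeptidases that cut collagens, proteoglycans and other matrix proteins, either as secreted proenzymes or bound to the membrane. ADAMs are mostly membrane proteins that release the outer domains of growth factors, cytokines and receptors, whereas ADAMTS proteases are secreted and act on proteoglycans, procollagens and matrix glycoproteins. TIMPs bind the active site of these enzymes, and TIMP3, which stays attached to the matrix, also inhibits several ADAM and ADAMTS proteases. In PDAC these families are known for remodeling the collagen-rich stroma and for the invasion of tumor cells.

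Total counts per library ran from 18389235 to 23440550, so that 3 counts, the smallest level taken as detectable, corresponded to 0.125 to 0.162 CPM (counts scaled to a common library total). A count of 0 allows a level up to this floor, which covers counting error only. Together the 84 members accounted for 0.27% to 0.465% of all counts per library. *Smad4* itself was at 33.7 to 35.5 CPM in the 4 Smad4-off libraries and at 97.3 to 117 CPM in the 4 Smad4-on libraries, which left residual *Smad4* RNA in the off state. Keratins and *Cdh1* marked the cells as epithelial (summed level of 5 markers 1150 to 5530 CPM), although *Epcam*, another defining epithelial marker, was at only 0.153 to 2.11 CPM. All 3 islet markers were at 0, the acinar markers summed to 0.51 to 1.41 CPM, and the immune markers to 1.32 to 6.38 CPM, most of it *Cd68*. The values of a gene are given below as CPM after TMM scaling, and members with an adjusted p below 0.05 that changed more than 2-fold were called.

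Promoters of 6 members are shown here, because TGFβ-responsive protease genes are known to carry AP-1, SMAD and ETS elements near their start sites. They were chosen after the search, so that each holds some of the letters, and cover the 3 reported MMPs of chromosome 9, both TIMPs that changed and an ADAM. Each is the run of 250 bases before the RefSeq start site on GRCm38.p6, written 5′ to 3′ on the strand of the gene. Capitals mark TGANTCA (the AP-1 element, which reads the same on both strands), CAGAC (the core of the SMAD element) and AGGAAG (an ETS element), searched on both strands. Mmp3 (chr9:7445572-7445821), Mmp10 (chr9:7502092-7502341), Mmp13 (chr9:7272264-7272513), Timp1 (chrX:20869916-20870165) and Timp3 (chr10:86300162-86300411) lie on the plus strand, and Adam8 (chr7:139992563-139992812) lies on the minus strand.
Mmp3: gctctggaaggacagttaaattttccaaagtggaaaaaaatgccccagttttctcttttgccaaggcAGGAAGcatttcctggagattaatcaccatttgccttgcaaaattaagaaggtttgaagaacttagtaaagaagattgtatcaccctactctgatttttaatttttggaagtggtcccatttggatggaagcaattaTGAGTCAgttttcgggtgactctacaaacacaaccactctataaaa
Mmp10: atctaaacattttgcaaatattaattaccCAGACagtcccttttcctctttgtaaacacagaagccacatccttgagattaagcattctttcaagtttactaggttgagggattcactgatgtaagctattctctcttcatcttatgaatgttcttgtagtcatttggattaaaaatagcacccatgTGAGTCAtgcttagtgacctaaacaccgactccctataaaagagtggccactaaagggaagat
Mmp13: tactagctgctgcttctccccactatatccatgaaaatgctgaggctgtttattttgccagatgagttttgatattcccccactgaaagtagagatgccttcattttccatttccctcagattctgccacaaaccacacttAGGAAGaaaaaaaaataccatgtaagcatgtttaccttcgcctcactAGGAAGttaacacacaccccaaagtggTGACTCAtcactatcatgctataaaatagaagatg
Timp1: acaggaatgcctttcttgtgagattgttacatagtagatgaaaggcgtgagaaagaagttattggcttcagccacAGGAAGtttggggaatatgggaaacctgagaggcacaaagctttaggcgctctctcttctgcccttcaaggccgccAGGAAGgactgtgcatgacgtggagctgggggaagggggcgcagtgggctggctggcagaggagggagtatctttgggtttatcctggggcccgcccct
Timp3: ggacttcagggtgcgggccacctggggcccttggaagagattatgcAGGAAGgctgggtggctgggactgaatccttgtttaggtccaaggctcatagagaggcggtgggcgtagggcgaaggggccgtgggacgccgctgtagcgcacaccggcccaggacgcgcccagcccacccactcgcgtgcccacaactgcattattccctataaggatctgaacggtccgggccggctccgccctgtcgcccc
Adam8: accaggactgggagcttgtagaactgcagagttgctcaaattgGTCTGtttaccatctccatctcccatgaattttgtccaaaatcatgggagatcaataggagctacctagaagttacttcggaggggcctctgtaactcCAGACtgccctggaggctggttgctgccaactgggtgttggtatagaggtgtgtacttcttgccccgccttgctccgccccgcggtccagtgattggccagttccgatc

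The first 3 promoters share a single AP-1 element close to the start, which begins 46 bases before it in Mmp3, 63 in Mmp10 and 35 in Mmp13. Timp1 held 2 ETS elements and Timp3 held 1, with no AP-1 or SMAD letters in either, and Adam8 held the SMAD letters in 2 places and neither of the others. RefSeq windows were given for 26 of the 41 tested members (28 windows, since Adam19 has 3 starts). AP-1 letters were in 4 of these windows, against 6.75% of all 32851 mouse promoter windows. SMAD letters were in 9 of the 28, against 42.2% of all windows, and ETS letters in 8, against 29.5%. None of the 3 motifs was found in 11 windows, among them those of *Timp2* and of the called members *Mmp28*, *Adamts9* and *Adamtsl4*. These matches describe the letters of the windows and are not binding sites.

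*Timp2* was the most abundant member. Between genes, levels were compared as CPM per kb of merged exon, and on this scale the mean of *Timp2* over the libraries (237) was followed by those of *Adam9* (155), *Timp1* (137), *Mmp14* (65.3), *Timp3* (43) and *Adam10* (37.7). *Timp4* was not reported and had at most 2 counts in any library. The summed TIMP level per kb exceeded the summed MMP level in every library, by a ratio of 2.99 to 7.19.

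*Timp3* rose with TGFβ1 and, under TGFβ1, with *Smad4*. In B73 it was at 24.6 CPM in Smad4-off and 62.2 in Smad4-on cells under SB505124, and at 40.3 and 283 CPM under TGFβ1. In B87 the same 4 values were 104, 220, 397 and 1670 CPM. Within each line the Smad4-on TGFβ1 library was the highest, and B87 exceeded B73 in every condition, so that the Smad4-on and Smad4-off groups under TGFβ1 overlapped across lines. *Smad4* restoration raised *Timp3* under TGFβ1 (log2 fold change 2.37 ± 0.32 SE, adjusted p = 0.00916), whereas under SB505124 the difference of 1.23 ± 0.32 was not called (adjusted p = 0.153). Under SB505124 *Timp3* was called higher by edgeR without the filter on low counts (1.24, adjusted p = 6.77e-05). With only the 4 libraries compared it was called too (1.19, adjusted p = 0.0308). Of its exon bases, 21.3% lie over *Syn3* exons of the opposite strand, and *Syn3* had 9 to 20 counts per library. TGFβ1 raised *Timp3* in Smad4-on (2.54 ± 0.32, adjusted p = 0.00162) and in Smad4-off cells (1.40 ± 0.32, adjusted p = 0.0325).

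*Timp1*, a secreted inhibitor encoded on the X chromosome, went from 44.1 (Smad4 off) and 52.1 (Smad4 on) CPM under SB505124 to 87.3 and 150 CPM under TGFβ1 in B73. In B87 these values were 65.6, 67.8, 156 and 351 CPM. All 4 TGFβ1 libraries lay above all 4 SB505124 libraries. TGFβ1 raised *Timp1* in Smad4-on (log2 1.96 ± 0.19, adjusted p = 0.000576) and Smad4-off cells (1.12 ± 0.19, adjusted p = 0.0118). The effect of *Smad4* under TGFβ1 passed the test at just under 2-fold (0.99 ± 0.18, adjusted p = 0.0267), so it was not called. It was called by DESeq2 with the line (adjusted p = 3.49e-05) and by edgeR with DESeq2-type size factors (adjusted p = 0.0268).

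*Timp2*, the partner of MMP14 in the activation of pro-MMP2, was high throughout. It stood at 962, 1070, 931 and 710 CPM in B73 and at 909, 1060, 878 and 882 CPM in B87, for Smad4 off and on under SB505124 and then under TGFβ1. The smallest value was the Smad4-on TGFβ1 library of B73. A decrease with TGFβ1 in Smad4-on cells passed the test but not the fold rule (log2 -0.42 ± 0.12, adjusted p = 0.0313), and *Timp2* was called in no comparison. The makeup of the TIMP pool therefore differed between conditions. Per kb, *Timp2* made up 82.4% of the pool in Smad4-off SB505124 cells and 47.2% in Smad4-on TGFβ1 cells of B73, and 72.9% and 27.4% in B87. Over the same conditions the *Timp3* part went from 1.01% to 9% in B73 and, in B87, from 3.99% to 24.8%.

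**Figure D1:**
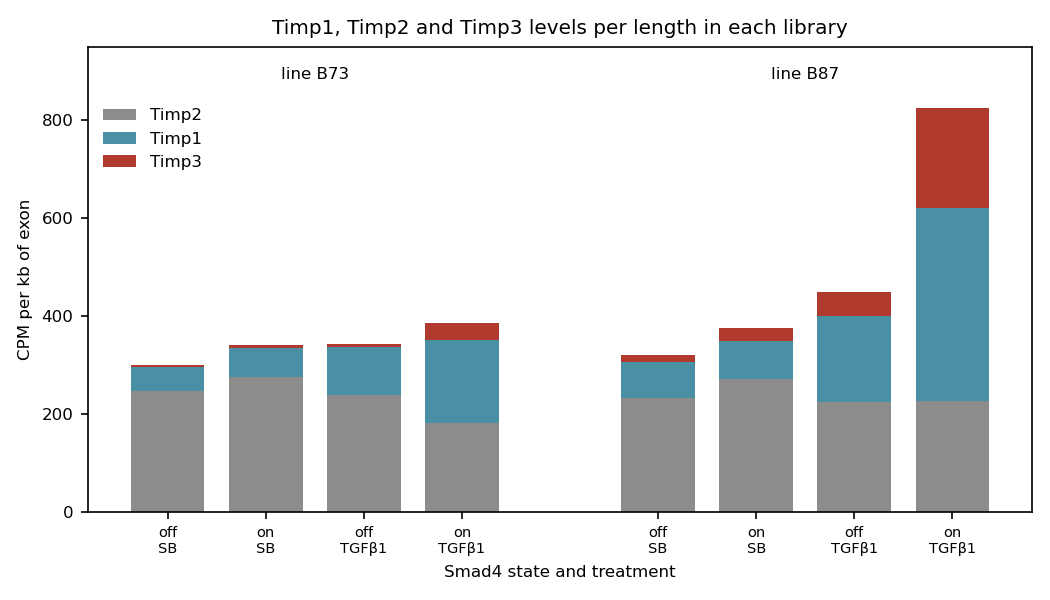
Levels of Timp1, Timp2 and Timp3 as CPM per kb of merged exon (vertical axis), stacked for each of the 8 libraries, with Smad4 off or on under SB505124 (SB) or TGFβ1 for line B73 on the left and B87 on the right. The Timp2 segment stays between 182 and 275, while the Timp3 segment reaches 205 in the Smad4-on TGFβ1 library of B87 and stays under 50 in the other 7.

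To ask how the proteases and inhibitors respond to TGFβ with *Smad4* present, TGFβ1 and SB505124 were compared in Smad4-on cells. Of 41 tested members, 11 rose, while 5.62% of all tested genes rose, and 5 fell, while 8.31% of all tested genes fell. The median absolute log2 fold change was 1.14 over the members and 0.34 over all tested genes. The members' median was also larger for the difference between the lines in the TGFβ1 response (0.485 against 0.191), where no member was called. The 16 called members moved the same way in both lines, and in 14 of them both libraries of one group lay above both of the other. Such groups without overlap were common with 2 libraries each, being found in 21 of the 41 members and in 57.9% of all tested genes, so the separation of a gene's groups is given below as a description.

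Among the MMPs, the rise involved membrane-type enzymes and a stromelysin. *Mmp14*, the membrane-bound collagenase that activates pro-MMP2, was at 261 (B73) and 275 CPM (B87) under SB505124 and at 524 and 637 CPM under TGFβ1 in Smad4-on cells. The groups did not overlap, and the rise was 1.11 ± 0.11 on the log2 scale (adjusted p = 0.000568). *Mmp24*, another membrane-type MMP, rose from 3.56 and 1.5 CPM to 14.8 and 3.06 CPM (1.64 ± 0.43, adjusted p = 0.026), with overlap between the lines and with 13.6% of its exon bases over *BC029722*, a gene of the opposite strand. *BC029722* held 368 to 684 counts per library, more than the 20 to 291 of *Mmp24* in every library. *Mmp10*, or stromelysin-2, rose from 0 and 0.249 CPM to 0.612 and 0.866 CPM (2.50 ± 0.71, adjusted p = 0.034), levels within a few fold of the floor. The other 2 tested membrane-type genes, *Mmp15* and *Mmp16*, were not called.

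*Mmp3*, or stromelysin-1, a broad matrix protease that also activates other pro-MMPs, fell most among the tested members. In Smad4-on cells under SB505124 it was at 6.80 CPM in B73 and 124 CPM in B87, and under TGFβ1 at 0.051 CPM (1 count) and 0.56 CPM (11 counts). Both TGFβ1 libraries lay below both SB505124 libraries, and the log2 fold change was -7.56 ± 0.47 (adjusted p = 0.000117), estimated against a group that holds few counts. *Mmp28*, or epilysin, an epithelial MMP, fell from 20.4 and 14.5 CPM to 3.72 and 4.69 CPM (-2.01 ± 0.32, adjusted p = 0.00378), without overlap.

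The 3 ADAMs called in this comparison rose. *Adam12* (meltrin α) went from 24 and 39.5 CPM under SB505124 to 155 and 174 CPM under TGFβ1 (log2 2.41 ± 0.17, adjusted p = 0.000192). *Adam8* went from 3.62 and 1.79 CPM to 44.3 and 6.42 CPM (2.82 ± 0.40, adjusted p = 0.00256). For both, the groups did not overlap. *Adam19* (meltrin β) went from 2.32 and 6.52 CPM to 5.97 and 17.7 CPM (1.39 ± 0.38, adjusted p = 0.0305), where the B87 SB505124 library was above the B73 TGFβ1 library.

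ADAMTS genes moved in both directions. *Adamts6* rose from 3.29 and 1.83 CPM to 62.1 and 53.6 CPM, which at log2 4.52 ± 0.28 (adjusted p = 0.000114) was the largest rise among the tested members. *Adamts7*, a protease of cartilage oligomeric matrix protein, rose from 5.83 and 4.11 CPM to 25.3 and 27.1 CPM (2.42 ± 0.29, adjusted p = 0.00127). The aggrecanase *Adamts4* rose from 0.108 and 0.374 CPM to 0.765 and 1.58 CPM (2.23 ± 0.47, adjusted p = 0.0114). None of these groups overlapped, although those of *Adamts4* lay near the floor. Conversely, the proteoglycanase *Adamts15* fell from 42.5 and 17.7 CPM to 2.80 and 0.56 CPM (-4.18 ± 0.54, adjusted p = 0.0017). *Adamts9*, which cleaves versican and aggrecan, fell from 3.4 and 20.2 CPM to 0.714 and 0.662 CPM (-3.83 ± 0.57, adjusted p = 0.00297). *Adamtsl4*, a fibrillin-binding protein without protease activity, fell from 42.6 and 65.9 CPM to 11.6 and 29.1 CPM (-1.46 ± 0.28, adjusted p = 0.00758). Again the groups were separate for all 3 genes that fell.

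In the same comparison the epithelial markers *Cdh1* and *Krt19* fell (log2 -2.31 ± 0.46, adjusted p = 0.00936, and -2.33 ± 0.22, adjusted p = 0.000454), whereas *Krt8* (0.20 ± 0.38), *Krt18* (0.52 ± 0.28) and *Epcam* (-0.39 ± 0.80) were not called. The endothelial marker *Cdh5* rose from 0.162 and 0.166 CPM to 2.75 and 2.04 CPM (3.79 ± 0.50, adjusted p = 0.00177). Of the other endothelial markers, *Kdr* was not called (0.13 ± 0.35, adjusted p = 0.811). *Pecam1* and *Tie1* were at or under 0.108 CPM in the Smad4-on libraries. The part of these markers in the members' changes was not tested. In bulk RNA, fewer cells that express a gene and less of its RNA per cell cannot be told apart.

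**Figure D2:**
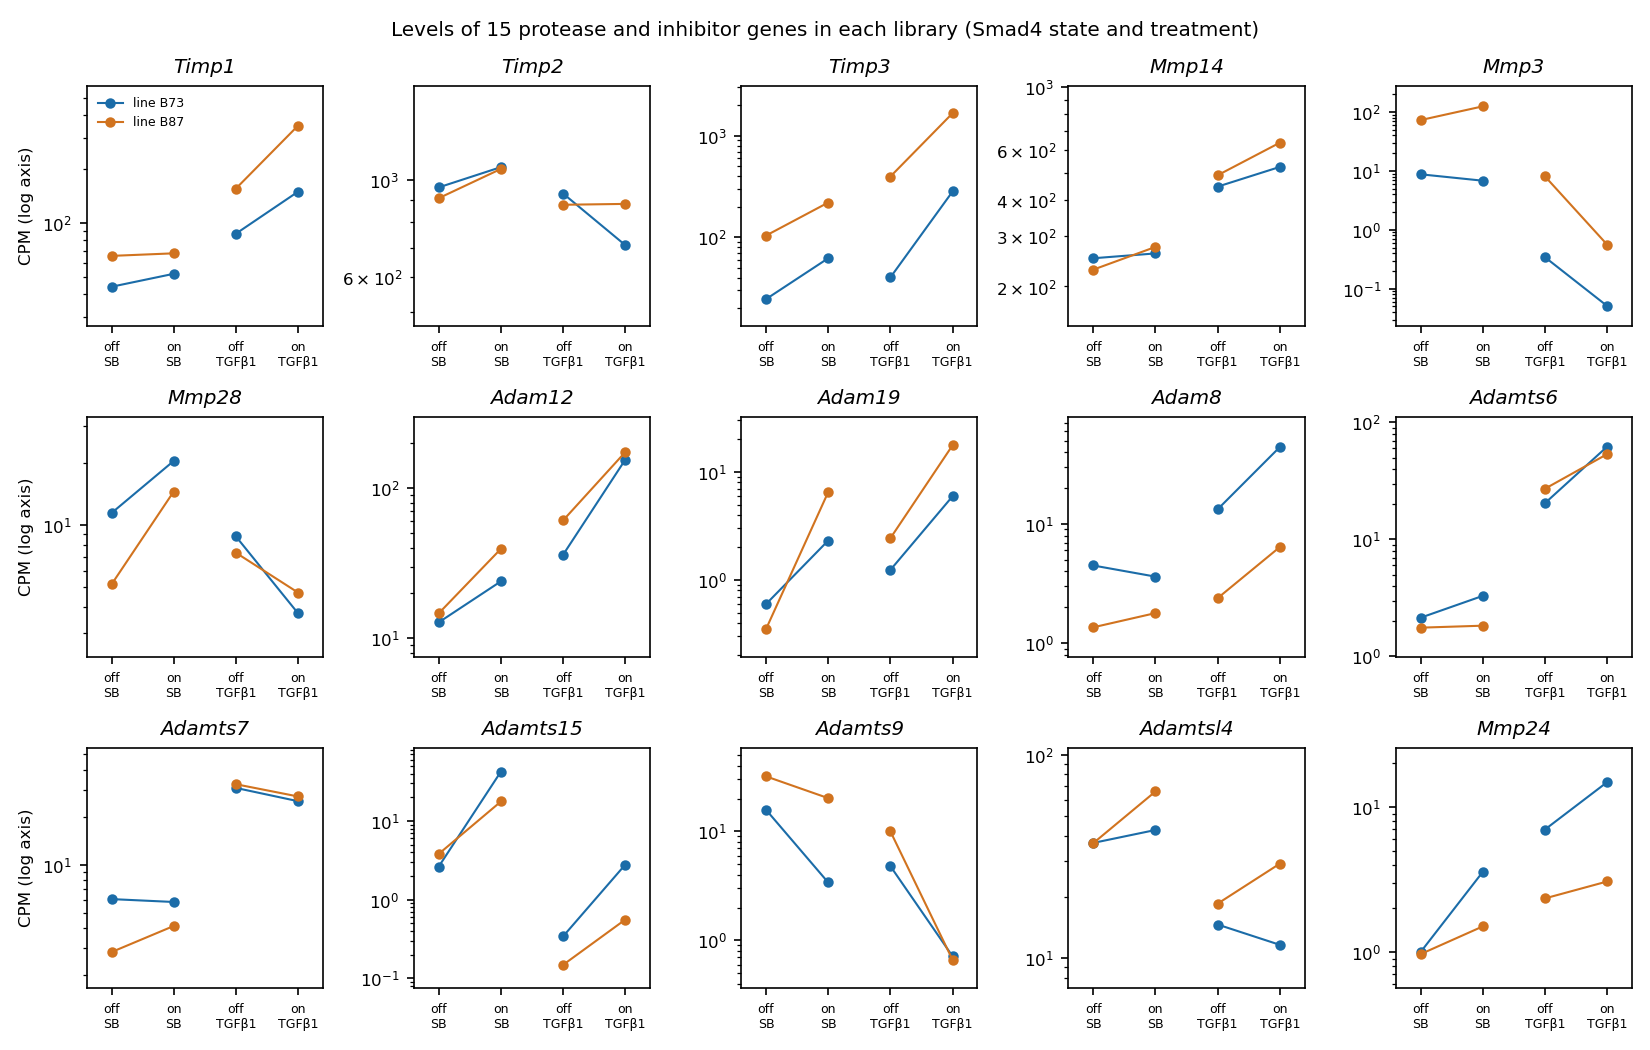
CPM on a log axis of 15 members in each library, with line B73 in blue and line B87 in orange and lines joining Smad4 off to on within SB505124 (SB) or TGFβ1. Within each Smad4 state, Timp1, Mmp14, Adamts6 and Adamts7 are higher in the TGFβ1 libraries of both lines, and Mmp3, Adamts9, Adamts15 and Adamtsl4 are lower. Mmp3 in Smad4-on TGFβ1 cells of B73 rests on 1 count.

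TGFβ1 was next compared with SB505124 in Smad4-off cells. Here 7 of 41 members rose (3.11% of all tested genes) and 4 fell (2.82% of all tested genes). The groups did not overlap in 10 of these 11, in 24 of the 41 members and in 48.9% of all tested genes. These 11 members were also called, with the same sign, in Smad4-on cells, in which they made up 11 of the 16 calls. The 2 comparisons used different libraries of the same lines, within the same fit. *Adamts6* rose from 2.14 and 1.76 CPM to 20.4 and 27.1 CPM (log2 3.62 ± 0.28, adjusted p = 0.000953), and *Adamts7* from 6.08 and 2.81 CPM to 30.7 and 32.4 CPM (2.87 ± 0.30, adjusted p = 0.00218). *Adam12* rose from 12.8 and 14.7 CPM to 36.1 and 61.1 CPM (1.78 ± 0.18, adjusted p = 0.00202). For all 3 the groups did not overlap.

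*Mmp24* (2.04 ± 0.49, adjusted p = 0.0369) and *Adamts4* (2.29 ± 0.47, adjusted p = 0.0232) rose as well, together with *Timp1* and *Timp3*. *Mmp3* fell in Smad4-off cells from 8.73 and 72.5 CPM to 0.343 and 8.06 CPM (-3.60 ± 0.33, adjusted p = 0.00147), a level that in B87 remained well above the floor. *Adamts15* fell from 2.64 and 3.82 CPM to 0.343 and 0.149 CPM (-3.84 ± 0.76, adjusted p = 0.0205). *Adamts9* fell from 15.8 and 32 CPM to 4.80 and 10 CPM (-1.71 ± 0.42, adjusted p = 0.0413), and *Adamtsl4* fell by 1.18 ± 0.28 (adjusted p = 0.0357). *Mmp14* reached 447 and 490 CPM from 251 and 229 CPM, a difference that passed the test at just under 2-fold (0.96 ± 0.11, adjusted p = 0.00288).

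Besides *Mmp14*, 4 members called in Smad4-on cells did not pass here by edgeR, namely *Adam8* (1.27 ± 0.41, adjusted p = 0.0888), *Adam19* (1.90 ± 0.54, adjusted p = 0.0642), *Mmp10* (1.81 ± 0.55, adjusted p = 0.0778) and *Mmp28* (0.02 ± 0.31, adjusted p = 0.979). DESeq2 with the line called *Adam19* (1.83, adjusted p = 0.0223) and *Adam8* (1.24, adjusted p = 0.038) in these cells. Without the filter on low counts, edgeR called *Adam19*, *Adam8* and *Mmp10* (adjusted p = 0.00171, 0.00254 and 0.0169). With only the 4 libraries compared, it called these genes too (adjusted p = 0.0312, 0.0111 and 0.0274). *Krt19* fell with TGFβ1 in Smad4-off cells too (-1.46 ± 0.21, adjusted p = 0.0067), and the endothelial markers *Kdr* (2.02 ± 0.28, adjusted p = 0.00615) and *Cdh5* (4.08 ± 0.69, adjusted p = 0.0117) rose. The other epithelial markers *Cdh1* (-1.07 ± 0.44), *Krt8* (-0.25 ± 0.39), *Krt18* (0 ± 0.29) and *Epcam* (0.75 ± 1.06) were not called. The other endothelial markers, *Pecam1* and *Tie1*, were at or under 0.214 CPM. *Cdh5* was at 0.0997 and 0 CPM under SB505124 and at 0.985 and 0.796 CPM under TGFβ1. The part of these markers was not tested.

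The effect of *Smad4* restoration was measured under TGFβ1 as Smad4-on against Smad4-off cells. Its libraries also serve as the TGFβ1 libraries of the comparisons above, so the values are given side by side. Of 41 members, 5 rose, against 1.31% of all tested genes, and 2 fell, against 1.8%. In 4 of these 7 the groups did not overlap, as in 17 of the 41 members and 44.2% of all tested genes. Of the 7, 3 were ADAMs. *Adam12* went from 36.1 (B73) and 61.1 CPM (B87) to 155 and 174 CPM (1.81 ± 0.17, adjusted p = 0.00287), *Adam19* from 1.24 and 2.44 CPM to 5.97 and 17.7 CPM (2.59 ± 0.41, adjusted p = 0.016), and *Adam8* from 13.3 and 2.39 CPM to 44.3 and 6.42 CPM (1.6 ± 0.37, adjusted p = 0.0489). The groups were separate for *Adam12* and *Adam19* and overlapped across the lines for *Adam8*.

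*Adamts6* rose from 20.4 and 27.1 CPM to 62.1 and 53.6 CPM (1.27 ± 0.23, adjusted p = 0.0231), without overlap, and *Timp3* rose as given above. *Mmp3*, against 1 and 11 counts in Smad4-on cells, fell from 0.343 and 8.06 CPM to 0.051 and 0.56 CPM (-3.67 ± 0.55, adjusted p = 0.0129), and *Adamts9* from 4.80 and 10 CPM to 0.714 and 0.662 CPM (-3.39 ± 0.58, adjusted p = 0.0196). Only for *Adamts9* of these 2 were the groups separate. *Adamts15* was at 0.343 and 0.149 CPM (8 and 3 counts) without and 2.80 and 0.56 CPM with *Smad4* (2.66 ± 0.82), which did not pass by edgeR (adjusted p = 0.11). DESeq2 called *Adamts15* higher with the line (2.64, adjusted p = 0.00488) and without it (2.76, adjusted p = 0.0399). So did edgeR without the filter on low counts (2.65, adjusted p = 0.00133) and with only the 4 libraries compared (2.69, adjusted p = 0.0267). *Mmp14* differed by 0.31 ± 0.11 (adjusted p = 0.144). The endothelial marker *Kdr* fell in this comparison (-3.35 ± 0.31, adjusted p = 0.00289), while *Cdh5* differed in the other direction without a call (1.42 ± 0.38, adjusted p = 0.0761) and *Pecam1* and *Tie1* were at or under 0.214 CPM in every library. Their part was not tested.

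With the TGFβ receptor blocked by SB505124, *Smad4* restoration raised 3 members (0.636% of all tested genes rose) and lowered 0 by edgeR (0.455% of all tested genes fell), with 1 member lower at an unadjusted p under 0.05 and 0 called lower by DESeq2 with the line. These libraries also serve as the SB505124 groups of the TGFβ1 comparisons. *Adam12* went from 12.8 and 14.7 CPM to 24 and 39.5 CPM (1.18 ± 0.18, adjusted p = 0.0296) and *Adam19* from 0.598 and 0.351 CPM to 2.32 and 6.52 CPM (3.10 ± 0.51, adjusted p = 0.0398). Both genes were thus called higher with *Smad4* under either treatment. The 2 comparisons share no library but come from the same fit of all 8 libraries, so they are not independent. With only the 4 SB505124 libraries fitted, neither gene was called for *Smad4*. *Adamts15* rose from 2.64 and 3.82 CPM to 42.5 and 17.7 CPM (3.00 ± 0.50, adjusted p = 0.0414). In all 3 the groups were separate, as they were in 17 of the 41 members and 30.9% of all tested genes. *Mmp3* was at 8.73 and 72.5 CPM without and 6.80 and 124 CPM with *Smad4* (0.29 ± 0.27, adjusted p = 0.718). *Adamts9*, the member lower at an unadjusted p under 0.05, went from 15.8 and 32 CPM to 3.4 and 20.2 CPM (-1.26 ± 0.41, adjusted p = 0.263). Without the filter on low counts, edgeR called it lower (-1.25, adjusted p = 0.00529) and *Mmp28* higher (1.13, adjusted p = 0.00332).

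**Figure D3:**
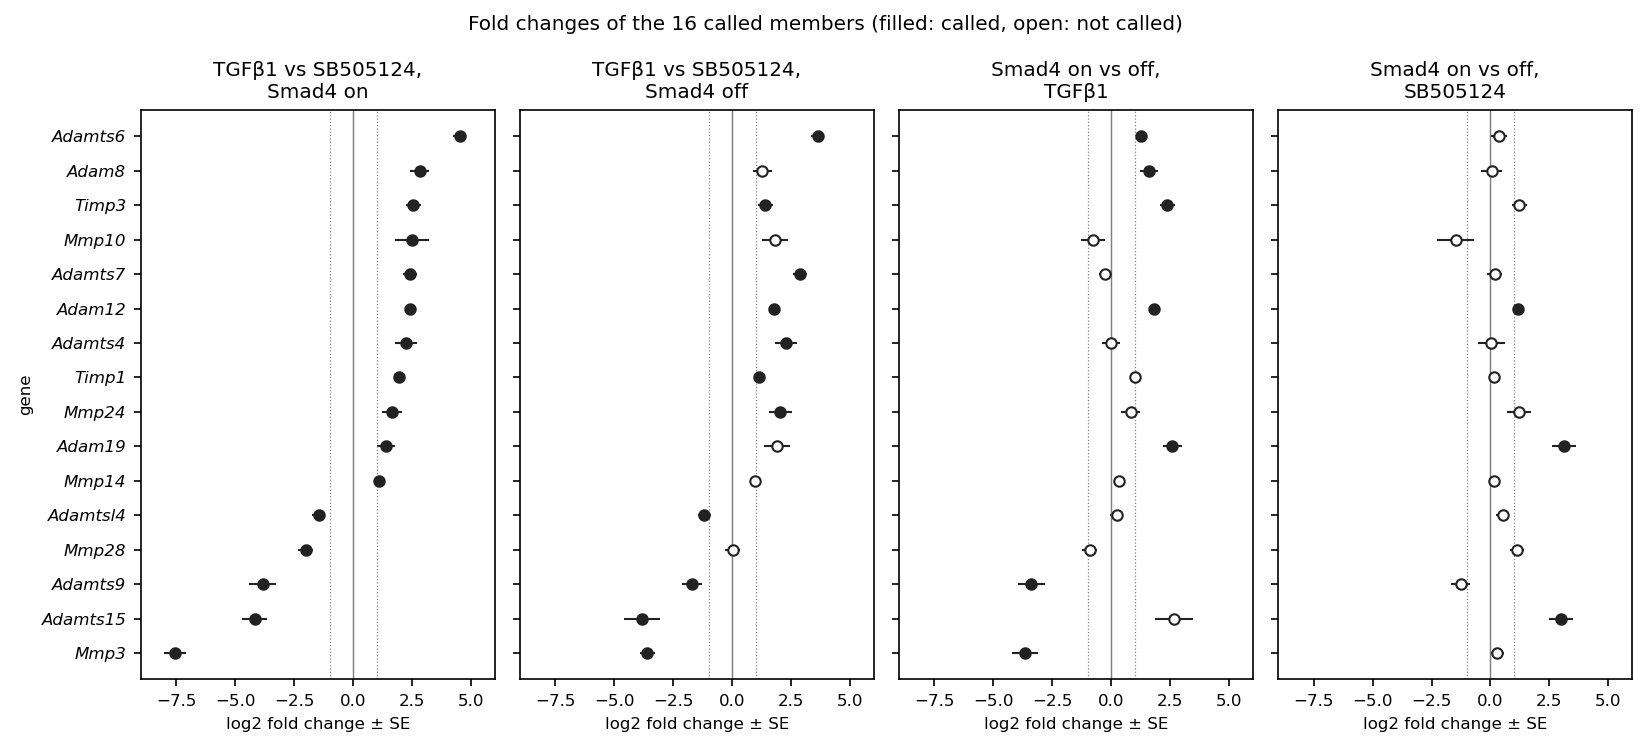
Log2 fold changes with standard errors (horizontal axis) of the 16 members called in at least 1 of the 4 comparisons, with filled circles for called values and dotted lines at a 2-fold change. Adam12 is filled in all 4 panels, and Mmp3 lies at -7.56 and -3.60 in the TGFβ1 panels and at -3.67 and 0.29 in the Smad4 panels.

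Whether the effect of *Smad4* depended on the treatment was tested as an interaction. Of 41 members 0 were called, against 0.189% of all tested genes, and 7 had an unadjusted p under 0.05. The lowest p were those of *Mmp3* (log2 -3.97 ± 0.62, adjusted p = 0.104) and *Mmp28*, which was higher with *Smad4* under SB505124 in both lines and lower under TGFβ1 in both lines (-2.02 ± 0.44, adjusted p = 0.182 by edgeR). DESeq2 with the line in its model called these 2 members (adjusted p = 5.29e-06 for *Mmp3* and 0.00949 for *Mmp28*). *Timp3* had an interaction of 1.14 ± 0.44 (adjusted p = 0.429) and *Timp1* of 0.84 ± 0.26 (adjusted p = 0.316), so a larger *Smad4* effect under TGFβ1 was not shown for either. Without the filter on low counts, edgeR called 5 members in the interaction, among them *Timp3* (1.12, adjusted p = 0.0181), so its result depended on the filter.

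**Figure D4:**
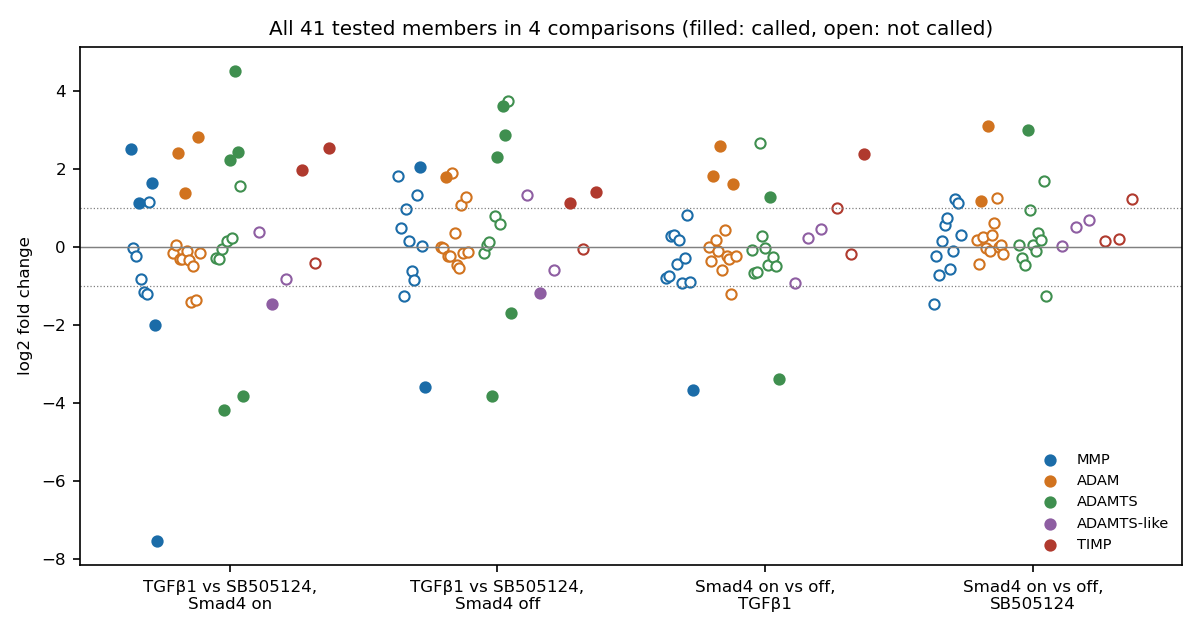
Log2 fold change (vertical axis) of all 41 tested members in the 4 comparisons, colored by family, with filled points for called members and dotted lines at a 2-fold change. Called members number 16, 11, 7 and 3 from left to right, and most open points lie between the dotted lines.

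Many widely studied sheddases and gelatinases were not called. *Adam10*, the sheddase of Notch and cadherins, ran from 158 to 224 CPM and was called in none of the comparisons. *Adam17*, the sheddase of TNF and of several EGFR ligands, ran from 76.3 to 105 CPM, and its decrease with TGFβ1 in Smad4-on cells passed the test below 2-fold (log2 -0.32 ± 0.07, adjusted p = 0.0167). *Adam9* was the most abundant ADAM per kb and made up 60.6% to 74.3% of the summed ADAM level in each library, at 489 to 756 CPM, without a call. The gelatinase *Mmp2* was low, at 0.299, 0.378, 1.11 and 0.357 CPM in B73 and 0.746, 0.582, 1.34 and 1.94 CPM in B87, and was not called.

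*Mmp9*, the other gelatinase, was not tested because of low counts. It had 0 counts in both SB505124 libraries of B73 and 4 and 0 in those of B87, then 10 (Smad4 off) and 4 (Smad4 on) counts under TGFβ1 in B73 and 63 and 5 in B87. In both lines the Smad4-off TGFβ1 library held the most. The same library of B87 had the highest *Kdr* level (25.2 CPM), whereas *Ptprc* and *Adgre1*, which define leukocytes and macrophages, were at 0 in it; any part of other cells was not tested.

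The remaining tested members were described by range. In all, 25 of the 41 were called in none of the 5 contrasts of treatment, *Smad4* and their interaction, and 12 of these stayed under 5 CPM in every library. Catalytically inactive ADAMs known from neurons (*Adam11*, *Adam22*, *Adam23*) were between 0.459 and 3.08 CPM. The procollagen N-proteinases *Adamts2* and *Adamts14* ran from 1.76 to 10.2 CPM and from 3.51 to 9.29 CPM. *Adamtsl5*, at 34 to 89.8 CPM, passed the test in all 4 pairwise comparisons below 2-fold, being higher with *Smad4* (0.46 ± 0.09 and 0.68 ± 0.08 under TGFβ1 and SB505124, adjusted p = 0.0265 and 0.0145) and lower with TGFβ1 (-0.82 ± 0.08 and -0.60 ± 0.09 in Smad4-on and Smad4-off cells, adjusted p = 0.000683 and 0.00631).

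The secreted MMP genes of chromosome 9 lie in a single run of 10 genes from Mmp13 to Mmp7 (chr9:7272514-7699585 on GRCm38, 427072 bases), and only 3 of the 10 were reported. *Mmp3* held 5123 counts over the 8 libraries, *Mmp13* 299 and *Mmp10* 108, whereas *Mmp27* held 6, *Mmp12*, *Mmp1a* and *Mmp8* held 1 each, and *Mmp1b*, *Mmp20* and *Mmp7* held 0. *Mmp3* and *Mmp10*, whose genes stand on either side of *Mmp1a*, moved in opposite directions with TGFβ1 in Smad4-on cells, as given above. The collagenase *Mmp13* was at 2.44, 1.03, 1.28 and 2.50 CPM in B73 and at 3.07, 2.20, 1.05 and 0.408 CPM in B87 and was not called. All 3 promoters hold the AP-1 letters shown above. Some 3.76% of the 75-base stretches of *Mmp3* transcripts and 3.94% of those of *Mmp10* also occur in another gene, chiefly each other.

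The lines differed in several members when all conditions were fitted together. Of 41 members, 4 were higher in B87 (3.87% of all tested genes) and 4 lower (4.5% of all tested genes). *Mmp3* was 13.1-fold (log2 3.71 ± 0.25, adjusted p = 2e-04) and *Timp3* 5.43-fold (2.44 ± 0.23, adjusted p = 0.000749) higher in B87, followed by *Adamts9* (1.35 ± 0.33, adjusted p = 0.0321) and *Adam19* (1.14 ± 0.31, adjusted p = 0.0456). The latter pair did not hold this order in every condition, since *Adam19* was lower in B87 in Smad4-off SB505124 cells (0.351 against 0.598 CPM) and *Adamts9* in Smad4-on TGFβ1 cells (0.662 against 0.714 CPM). *Mmp15* (-2.73 ± 0.25, adjusted p = 0.000716), *Adam8* (-2.11 ± 0.29, adjusted p = 0.00341), *Mmp16* (-1.88 ± 0.36, adjusted p = 0.0136) and *Mmp24* (-1.45 ± 0.32, adjusted p = 0.0229) were lower. Each line is a single culture, so this compares 2 lines and not a population. The 6 fibroblast markers summed to 17.9 to 33.8 CPM in B87 and 0.816 to 2.23 CPM in B73, chiefly from *Pdgfra* and *Pdgfrb*, while *Lum* was at 0 and *Dcn* at or under 0.149 CPM in every library. The epithelial markers *Krt8* (-2.51 ± 0.29, adjusted p = 0.0017), *Cdh1* (-2.06 ± 0.33, adjusted p = 0.00613) and *Krt18* (-1.10 ± 0.21, adjusted p = 0.0118) were lower in B87, and the endothelial marker *Kdr* was higher (2 ± 0.22, adjusted p = 0.00146). Of the other endothelial markers, *Cdh5* was not called (-0.43 ± 0.35, adjusted p = 0.465). *Pecam1* and *Tie1*, at or under 0.214 CPM in every library, were not tested. The part of these markers in the line differences was not tested.

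Whether the lines differed in their responses was also tested. For the response to TGFβ1, 0 members and 0% of all tested genes were called by edgeR (9 members at an unadjusted p under 0.05, and 0 by DESeq2). For the response to *Smad4*, 0 members were called by edgeR against 0.392% of all tested genes, with 10 at an unadjusted p under 0.05. The closest was *Adamtsl3*, another ADAMTS-like protein, which was lower with *Smad4* in B73 (50.8 to 26.3 CPM under SB505124, 107 to 39.7 under TGFβ1) and in B87 went from 18.8 to 38.7 CPM and from 63.1 to 47 CPM (log2 difference between the lines 1.47 ± 0.24, adjusted p = 0.0678 by edgeR and 9.71e-05 by DESeq2).

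Finally, 26 genes that activate, escort or inhibit these proteases, or share their substrates, were examined, of which 19 were tested. The procollagen C-proteinases rose with TGFβ1. *Bmp1* rose in Smad4-on (log2 1.67 ± 0.14, adjusted p = 0.000338) and Smad4-off cells (1.41 ± 0.14, adjusted p = 0.00208). *Tll1* rose with *Smad4* and with TGFβ1 in all 4 comparisons, most under TGFβ1 with *Smad4* (3.56 ± 0.29, adjusted p = 0.00162), with 13 and 154 counts in B73 and 95 and 970 counts in B87 without and with *Smad4*. *Furin*, the convertase that removes the propeptide of membrane-type MMPs and ADAMs, rose with TGFβ1 in Smad4-on cells (1.33 ± 0.09, adjusted p = 0.000181), as did *Plau*, or urokinase (1.22 ± 0.23, adjusted p = 0.00742), which *Smad4* lowered under SB505124 (-1.44 ± 0.23, adjusted p = 0.0359). In Smad4-off cells the rise of *Furin* with TGFβ1 passed the test at just under 2-fold (0.99 ± 0.09, adjusted p = 0.00156).

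Of the TspanC8 tetraspanins, which escort ADAM10 to the membrane, *Tspan5* fell with TGFβ1 in both Smad4 states (-1.81 ± 0.11 with and -1.01 ± 0.11 without *Smad4*, adjusted p = 0.000114 and 0.00233). *Tspan15* fell with TGFβ1 in Smad4-on cells (-1.91 ± 0.20, adjusted p = 0.000747) and with *Smad4* under TGFβ1 (-1.05 ± 0.20, adjusted p = 0.0287). The convertase *Pcsk6* fell with TGFβ1 in both states (-2.67 ± 0.27 and -1.14 ± 0.26, adjusted p = 0.000659 and 0.0313). *Thsd4*, an ADAMTS-like protein whose symbol falls outside the rule, fell in 3 of the 4 comparisons, by 2.36 ± 0.20 with *Smad4* under TGFβ1 (adjusted p = 0.00199). The iRhom genes *Rhbdf1* and *Rhbdf2* and *Frmd8*, partners of ADAM17, were not called. A rise of *Rhbdf2* with TGFβ1 passed the test below 2-fold in Smad4-on (0.96 ± 0.11, adjusted p = 0.00107) and Smad4-off cells (0.48 ± 0.11, adjusted p = 0.0313). In total 4 of the 19 rose and 4 fell with TGFβ1 in Smad4-on cells (5.62% and 8.31% of all tested genes), and 2 and 2 in Smad4-off cells (3.11% and 2.82%). With *Smad4*, 1 rose and 2 fell under TGFβ1 (1.31% and 1.8% of all tested genes) and likewise under SB505124 (0.636% and 0.455%). *Reck*, a membrane-anchored MMP inhibitor, differed between the lines (2.74 ± 0.31 higher in B87, adjusted p = 0.00143) and was not called for treatment or *Smad4*.

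The calls depended on pairing the libraries by line and, for some, on single libraries. Without the line in the model (no replicate block), edgeR kept 8 of the 16 calls for TGFβ1 in Smad4-on cells (*Mmp14*, *Mmp28*, *Adam12*, *Adamts6*, *Adamts7*, *Adamts9*, *Adamts15* and *Timp1*), 2 of 11 in Smad4-off cells (*Adamts6* and *Adamts7*), and 0 of 7 and 0 of 3 for *Smad4* under TGFβ1 and SB505124. DESeq2 without the block kept 11, 4, 4 and 3 of these calls in the same order. For *Smad4* under TGFβ1 without the block, *Timp3* had a log2 fold change of 2.16 by edgeR (adjusted p = 0.582, and 0.535 by DESeq2) and *Mmp3* of -3.74 (adjusted p = 0.565 and 0.385). *Adam12* had 1.76 and was not called by edgeR (adjusted p = 0.125) but was by DESeq2 (adjusted p = 4.53e-06). When each library was left out in turn, *Adam12* and *Timp3* kept their *Smad4* calls under TGFβ1. The other 5 were lost on 2 to 5 of the 8 occasions, with the highest adjusted p of 0.133 for *Adam19* and 0.152 for *Adamts6* (without the Smad4-off TGFβ1 library of B87 and of B73), 0.121 for *Adamts9* and 0.269 for *Mmp3* (without the Smad4-on TGFβ1 library of B87), and 0.32 for *Adam8* (without that of B73).

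All 3 *Smad4* calls under SB505124 were lost on 4 or 5 of the 8 occasions, with the highest adjusted p of 0.14 for *Adam12* without the Smad4-off library of B87, 0.151 for *Adam19* without the Smad4-on library of B87 and 0.259 for *Adamts15* without the Smad4-on library of B73, each under SB505124. For TGFβ1 in Smad4-on cells, 10 of the 16 calls held on every occasion. *Mmp14* was lost once, at a log2 fold change of 0.98 without the Smad4-on TGFβ1 library of B87, and *Adamtsl4* once, without the Smad4-on SB505124 library of B87 (adjusted p = 0.0538). Those of *Mmp24* and *Mmp10* rested most on the Smad4-on TGFβ1 library of B73 (adjusted p = 0.22 and 0.118 without it), and those of *Adam19* and *Adamts4* on that of B87 (0.229 and 0.0876). In Smad4-off cells, *Adam12*, *Adamts6*, *Adamts7* and *Mmp3* held on every occasion, and the other 7 were lost on 2 to 5. Their highest adjusted p was 0.201 for *Timp3* and 0.203 for *Adamts4* without the SB505124 library of B87, 0.0888, 0.277 and 0.238 for *Timp1*, *Adamts9* and *Adamtsl4* without the TGFβ1 library of B87, and 0.131 and 0.175 for *Adamts15* and *Mmp24* without the TGFβ1 library of B73.

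Single libraries also set the size of some changes, and the log2 fold changes that moved by more than 1.5-fold are given here. For *Smad4* under TGFβ1, *Timp3* was 3.02 and *Mmp3* -2.88 without the Smad4-off library of B87, *Adam8* was 0.99 without the Smad4-on library of B73, and *Adamts9* was -4.12 and -2.51 without the Smad4-on library of B73 and of B87. Under SB505124, *Adam19* was 4.15 and 2.01, and *Adamts15* 2.08 and 4.14, without the Smad4-off library of B73 and of B87. For TGFβ1 in Smad4-on cells, *Adam8* was 2.06 and 3.45 without the SB505124 library of B73 and of B87, and *Adamts9* was -4.44 and -2.77 without them and -4.54 and -2.94 without the TGFβ1 libraries in the same order. In the same comparison *Adamts15* was -5.35 and *Mmp24* 0.93 without the TGFβ1 library of B73, and *Adamts4* was 2.90 and *Mmp10* 6.42 without the SB505124 library of B87. The last is a fitted value and no bound, since the SB505124 library that remains held 0 counts of *Mmp10*. In Smad4-off cells, *Timp3* was 0.77 without the TGFβ1 library of B87 and *Mmp3* was -4.38 and -4.34 without the SB505124 and the TGFβ1 library of B87. *Adamts15* was -4.88 and -2.81, and *Mmp24* 1.18 and 2.88, without the SB505124 library of B73 and of B87, *Adamts4* was 1.6 without that of B87, and *Adamts7* was 3.46 without that of B73.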

How the data were processed

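RNA was measured in 8 libraries, 1 per line in each of 4 groups taken from the line, Dox state and treatment in the sample titles. Per the labels and the study's methods, the authors made stranded poly(A) libraries, read them as single ends of 75 bases and, by the submitters' processing notes, used Trimmomatic 0.36, STAR 2.5.3a, featureCounts 1.6.3 and FastQC 0.11.5 with GRCm38 (mm10). The deposited values are raw counts per Ensembl gene, with 1 column per library. How featureCounts treated strand and multi-mapped reads is not given in the sources used here, so genes with overlapping exons are less certain. Among the members, *Adam1a* shares 77% of its 75-base stretches with another gene model.

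The counts were fitted with edgeR 4.0.16 (R 4.3.3) after TMM scaling and filterByExpr, which left 14301 genes, and its quasi-likelihood F-test was applied to a model of 4 groups plus line over all 8 libraries. Values called adjusted p are Benjamini-Hochberg values over all tested genes, a call also needed a fold above 2, and each standard error (SE) is |log2 fold change| over √F, an approximation. Libraries were paired by line, because every title names the line and each line went through all conditions. As a check, deviations of a line from its group mean correlated across the 6 pairs of groups with a median r of 0.758 (0.642 to 0.774). The study's methods use DESeq2 and name no covariate. The labels do not say that libraries of a group are separate cultures beyond being separate lines, so p-values measure the spread between these libraries.

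CPM per kb used merged exon lengths of GENCODE M21, in which all 84 members were found. Promoters came from RefSeq (GRCm38.p6). Values in every library were given for members called in a contrast of treatment, *Smad4* or their interaction, for reported Timp genes and for *Mmp2*, *Mmp9*, *Mmp14*, *Adam10* and *Adam17*, and the others by range. *Adamtsl3*, *Adamtsl5*, *Mmp13* and *Adam9* were named after their values were seen. The members, the list of 26 related genes, the markers and the motifs were chosen with earlier results of these data known. The split of ADAMs by catalytic motif was made from textbook knowledge in place of protein sequences, which were not used here. Scripts were tested on simulated data. Alternatives were edgeR without the line, DESeq2 1.42.0 with and without it, DESeq2-type size factors, dropping the filter on low counts, a minimum of 10 counts per library, no fold rule, only the 4 libraries compared, and each library left out in turn.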

Additional observations from a re-analysis of the deposited data

How the results depend on the processing

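The 37 calls of named members kept their direction under all alternatives run. With DESeq2-type size factors or without the filter 37 calls remained, with DESeq2 and the line 36 (*Adamts4* in Smad4-off cells was lost, adjusted p = 0.0754), and with only the 4 libraries compared 34, the 3 *Smad4* calls under SB505124 being lost. Without the replicate block, which pairs libraries by line, 10 remained with edgeR and 22 with DESeq2. The number of members called without the block was, by edgeR, 0 for *Smad4* under TGFβ1, 0 under SB505124, and 8 and 2 for TGFβ1 in Smad4-on and Smad4-off cells, and by DESeq2 5, 3, 11 and 4 in the same order. With at least 10 counts in every library 24 of the 25 calls still tested remained (*Adam8* for *Smad4* under TGFβ1 was lost), and the number was 4 for *Smad4* under TGFβ1, 1 under SB505124 and 5 between the lines. Without the filter it was 6 for *Smad4* under SB505124, 5 for the interaction and 6 for the line difference in the *Smad4* response, where DESeq2 with the line called 1. DESeq2 called 2 in the interaction, and the fit of 4 libraries called 1 for *Smad4* under SB505124. The cause of these shifts was not tested, other than that these fits hold other genes, fewer samples or no pairing.

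With each library left out in turn, which leaves a lone library assumed to vary like the other groups, members called ranged from 3 to 7 for *Smad4* under TGFβ1, 0 to 3 under SB505124, 12 to 17 and 4 to 12 for TGFβ1 in Smad4-on and Smad4-off cells, 0 to 1 for the interaction, 4 to 9 between the lines and 0 to 3 for the line difference in the *Smad4* response. The sign of 15 of 87 log2 fold changes of named members turned in at least 1 fit, and 0 of these 15 were called. For *Smad4* under TGFβ1, the leave-out ranges were -0.14 to 0.07 for *Adamts4*, -0.34 to 0.66 for *Adamtsl4*, -0.55 to 0.01 for *Adamts7* and -1.44 to 0.34 for *Mmp2*. Under SB505124 they were -0.57 to 0.81 for *Adam8* (-0.12 and -0.11 without the block by edgeR and DESeq2), -0.38 to 0.79 for *Mmp3*, -0.10 to 0.78 for *Adamts6*, -0.12 to 0.40 for *Timp1*, -0.67 to 0.58 for *Adamts4* (-0.08 by DESeq2 with the line), -0.27 to 0.78 for *Adamts7*, -0.33 to 0.27 for *Mmp2* and -0.05 to 0.01 for *Adam17*. For TGFβ1 they were -0.07 to 1.71 for *Mmp2* in Smad4-on cells, and -0.40 to 0.56 for *Mmp28* (-0.04 and -0.02 without the block) and -0.13 to 0.04 for *Timp2* in Smad4-off cells. Depth limits the members near 0.125 to 0.162 CPM, among them *Mmp9*, *Mmp10* and *Adamts4*.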

Other observations

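Among the members that stayed below the reporting minimum, 3, chosen after their counts were seen, held most of their counts in TGFβ1 libraries. *Adamts16* had 14 counts in the Smad4-on TGFβ1 library of B73 and 7 in that of B87, against 3 and 1 in the Smad4-off TGFβ1 libraries and at most 1 under SB505124. *Adamts12*, a relative of *Adamts7*, had 14 counts in the Smad4-on TGFβ1 library of B87 and 0 in that of B73. *Adamtsl2*, an ADAMTS-like protein of the microfibrils, had 11 counts in the Smad4-off TGFβ1 library of B87 and at most 2 in any other. These genes were not tested with the filter on low counts, and without it *Adamts16* was called higher with TGFβ1 in Smad4-on cells (adjusted p = 0.0032 by edgeR), as was *Mmp9* in Smad4-on (adjusted p = 0.0125) and Smad4-off cells (adjusted p = 7.65e-05). In the same fit *Mmp9* was also called lower with *Smad4* under TGFβ1 (log2 -2.71, adjusted p = 0.0037) and higher in B87 (2.29, adjusted p = 0.00386). Both genes had 0 counts in both Smad4-on SB505124 libraries, so no fold is given for their rise in Smad4-on cells.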
